A study of Oryza sativa and Arabidopsis thaliana with 24 samples.

Results

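Root and shoot of rice seedlings held in the cold were compared by tRNA sequencing, with 2 cold root libraries set against 2 cold shoot libraries. These are 4 of the 24 libraries of the series and 4 of the 14 from rice (Oryza sativa). Seeds had germinated at 30 °C for 2 d, and the seedlings grew in Yoshida's nutrient solution at 28 °C with 14 h of light and 10 h of darkness. For the cold groups, seedlings stood in a cold room at 4 °C for 8 h before root and shoot were frozen. The light in the cold room was continuous, so cold and the longer light cannot be told apart in any difference from the 2 control root and 2 control shoot libraries. The genotype carried no labelled modification, and no source used here names the cultivar, the age of the seedlings or the number of plants per library. The series' design text calls the 2 libraries of a group biological replicates, without saying what was replicated. The limma p-values thus measure the spread between paired libraries of a group, pooled over all 14 rice libraries in 7 groups. In each of these groups replicate 2 held 1.58 to 1.62 times the fragment reads of replicate 1. Whether the 2 libraries of a group are independent was not tested. The question was which differences between root and shoot remained in the cold. Only tRNAs were measured, so no protein-coding marker of an organ or cell type could be checked, and the plastid tRNAs, abundant in green tissue, are the one organ mark in the tables.

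Transfer RNAs carry amino acids to the ribosome, and each is named here by its amino acid and anticodon, so that Glu-CTC carries glutamate. Plant cells hold tRNAs encoded in the nucleus, which serve the cytosol and in part the mitochondria, and separate sets encoded in plastids and in mitochondria. Fragments cut from tRNAs (tRFs) can be sequenced, and in plants RNases of the T2 family are known to make many of them. The deposited classes are tRF-5 and 5'-halves, which start at the 5' end of the tRNA, and tRF-3 and 3'-halves, which reach its 3' end. The 5'-halves and 3'-halves are the classes cut in or near the anticodon loop, and the class names are the authors'. A mature tRNA ends in CCA, which a nucleotidyltransferase adds after transcription and whose last A carries the amino acid. The rice tables cover 299 tRNA sequences, of which 25 are plastid, 15 mitochondrial and 200 nuclear. A further 54 nuclear sequences resemble a plastid tRNA and 5 a mitochondrial one (at most 12 edits away). A read that matches a plastid tRNA and its nuclear copy can have been counted under either, so these plastid-like tRNAs are given apart.

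The sequences that carry the main differences are written 5' to 3' as the deposited table lists them, in DNA letters. Capitals mark the bases of the anticodon that a fragment holds, a complete CCA end, or, in the middle of a 3'-half, a base that was read differently from the tRNA sequence; a line without capitals holds none of these. The first set shows plastid fragments, all scarcer in cold root, above the mitochondrial fragment of the same tRNA type (Tyr-GTA), which was more abundant in cold root.
plastid Tyr-GTA tRF-3: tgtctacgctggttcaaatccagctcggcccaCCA
plastid Asp-GTC 5'-half: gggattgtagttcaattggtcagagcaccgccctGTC
plastid Gly-GCC 5'-half: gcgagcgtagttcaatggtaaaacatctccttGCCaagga
plastid Thr-GGT tRF-5: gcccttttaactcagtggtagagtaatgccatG
mitochondrial Tyr-GTA tRF-3: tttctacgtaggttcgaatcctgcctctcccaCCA

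The second set shows nuclear 3'-halves of Glu-CTC, which were more abundant in cold root. They are the same stretch of the tRNA, differ only at the base that stands 19th from the 3' end of the whole tRNA, and lack the last A of CCA.
Glu-CTC 3'-half as listed for the tRNA: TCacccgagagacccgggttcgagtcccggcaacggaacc
Glu-CTC 3'-half read with T: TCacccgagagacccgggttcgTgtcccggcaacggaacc
Glu-CTC 3'-half read with G: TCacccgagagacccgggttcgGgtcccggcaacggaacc

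The third set shows the other nuclear fragments whose values are given below. The first 5 were more abundant in cold root, and the last 4 were less abundant there.
Arg-TCG tRF-5: gaccgcatagcgcagtgga
Arg-CCT tRF-5: gcgcctgtagctcagtgga
Gly-TCC tRF-5: gcgtctgtagtccaacgg
Leu-CAA tRF-3: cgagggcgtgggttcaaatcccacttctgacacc
Glu-TTC 5'-half: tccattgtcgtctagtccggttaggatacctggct
Thr-CGT 3'-half: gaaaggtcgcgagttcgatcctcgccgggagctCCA
Ser-GCT tRF-3: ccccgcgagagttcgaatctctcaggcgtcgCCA
Gln-CTG 5'-half: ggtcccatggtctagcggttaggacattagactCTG
Glu-CTC tRF-5: tccgttgtagtctagctggttaggatactc

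The tables hold scaled read numbers (RPM) for each tRNA (here tRNA signal), for all tRFs of a tRNA (tRF totals) and for 2794 individual tRFs. Cold root libraries held 56479 and 86657 reads of tRNA signal, against 43355 and 65901 in cold shoot. They held 553633 and 880814 tRF reads, against 270981 and 433073 in cold shoot. The RPM of all tRNAs summed to 115097 and 122129 in cold root and 70984 and 75586 in cold shoot. Those of all tRFs summed to 105647 and 105504 in cold root and 131226 and 130945 in cold shoot. The organs thus differ in these sums, and the split into higher and lower calls moves with the scaling. Calls are limma tests at a Benjamini-Hochberg adjusted p under 0.05 over all tested features (mean of at least 1 RPM). The log2 folds are cold root over cold shoot on the log2(RPM + 1) scale, which understates changes of low values. In the cold, 115 of 244 tRNAs differed in signal (47.1%), with 85 higher in root (34.8%) and 30 lower (12.3%), at a median log2 fold of 0.72. With every library rescaled to the same total, 59 were higher and 56 lower of 245 tested, and the median of the same 244 was 0.09. Among tRF totals, 205 of 272 differed (75.4%), 74 higher (27.2%) and 131 lower (48.2%) at a median of -0.24. After rescaling, 106 were higher and 108 lower, at a median of 0.05, and with every library centred on its median feature 132 were higher and 87 lower. Of the individual tRFs, 1110 differed (39.7%), 407 higher (14.6%) and 703 lower (25.2%), 600 and 551 after rescaling, and 622 and 464 when centred. Without cold root replicate 1, 709 were called. Summed into 106 families of 1 origin, amino acid and anticodon, 88 tRF totals differed (83%), 29 higher (27.4%) and 59 lower (55.7%) at a median of -0.59. After rescaling, 41 were higher and 52 lower, but when centred 59 were higher and 39 lower. In these bulk samples, fewer cells or plastids of a kind and less RNA in each cannot be told apart.

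Plastid tRNAs and their fragments remained far scarcer in root than in shoot after the cold. Plastid tRNAs gave 10.8% and 11.4% of the tRNA signal in cold root, against 42.6% and 41.5% in cold shoot. They gave 3.55% and 3.59% of the tRF totals in cold root, against 22.1% and 21.5% in cold shoot. In the controls the share of tRNA signal was 3.36% and 3.50% in root, against 49.8% and 49.7% in shoot. The libraries of the organs did not overlap in either share, and 2 libraries against 2 allow no exact permutation p below 0.333 (two-sided), the value of both. Of 22 plastid families, 21 had lower tRF totals in cold root and 1 higher, at a median log2 fold of -2.76, against a median of -0.59 over all 106 families (55.7% lower). After rescaling to the same total and after centring on the median family the split was again 21 and 1. Of 22 plastid-like nuclear families, 20 were lower and 1 higher (median -2.64), and 17 lower and 1 higher after centring.

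**Figure D1:**
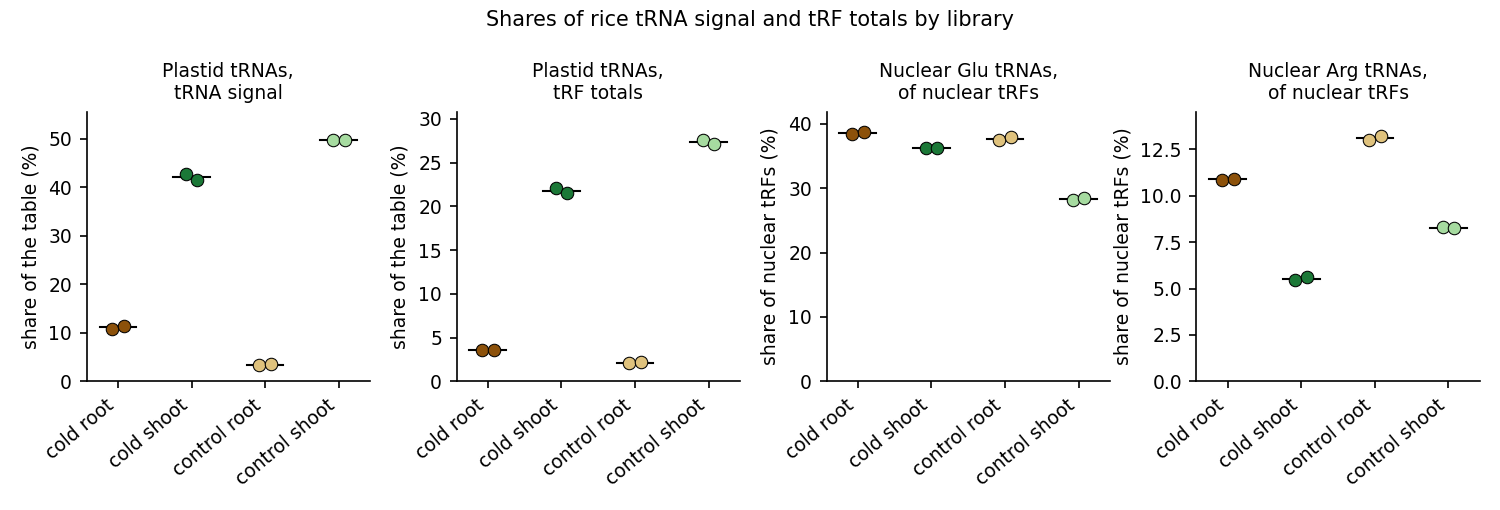
Shares of plastid tRNAs in the tRNA signal and in the tRF totals, and of nuclear Glu and Arg tRNAs in the nuclear tRF totals, in percent, for cold root, cold shoot, control root and control shoot. Dots are libraries (2 per group) and lines are means; in the plastid panels both root groups lie below both shoot groups, and in the Glu and Arg panels both root groups lie above both shoot groups.

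The plastid family with the most fragments was Tyr-GTA, which carries tyrosine: its tRF total was 616 and 602 RPM in cold root, against 9136 and 8785 in cold shoot (log2 fold -3.88 ± 0.03 (SE), limma adjusted p = 1.2e-27). All of it was counted under tRNA os_tR277 (chrC:15784-15867 on the plastid genome, 1 of 3 listed loci). The tRF-3 printed above gave 218 and 211 RPM in cold root, against 4334 and 4229.8 in cold shoot (log2 fold -4.31 ± 0.05 (SE), limma adjusted p = 3.7e-21). That fragment ends in a complete CCA and had the highest mean of all individual tRFs over the 4 cold libraries. Plastid Asp-GTC, the aspartate tRNA, had a tRF total of 443 and 434 RPM in cold root, against 3903 and 3842 in cold shoot (log2 fold -3.14 ± 0.05 (SE), limma adjusted p = 1.2e-23). Its 5'-half, which ends at the last base of the anticodon, had 157 and 158 RPM in cold root, against 2624 and 2530.5 in cold shoot (log2 fold -4.02). Plastid Thr-GGT, a threonine tRNA, had 29.8 and 31.4 RPM in cold root, against 522 and 492 in cold shoot (log2 fold -4.01), the largest difference among plastid families. In each of these the cold root libraries lay below the cold shoot libraries without overlap. The largest fall of a single fragment was that of the plastid Gly-GCC 5'-half (shared with plastid-like copies), with 5.53 and 4.55 RPM in cold root, against 264 and 284 in cold shoot (log2 fold -5.51 ± 0.25 (SE), limma adjusted p = 4.1e-12). The plastid Thr-GGT tRF-5 had 8.40 and 9.58 RPM in cold root, against 281 and 282 in cold shoot (log2 fold -4.83). Glycine and threonine tRNAs of the plastid serve translation of plastid-encoded proteins, many of them subunits of the photosynthetic complexes. Plastid Glu-TTC supplies glutamate both to that translation and to the synthesis of heme and chlorophyll. Its tRF total was 427 and 459 RPM in cold root, against 3001 and 2981 in cold shoot (log2 fold -2.75 ± 0.05 (SE), limma adjusted p = 3.5e-22). Plastid Phe-GAA, which carries phenylalanine, had 900.3 and 945 RPM in cold root, against 3812 and 3748 in cold shoot (log2 fold -2.03), the smallest fall among the 21.

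Asn-GTT was the one plastid family that was higher in cold root, with 180.3 and 172 RPM in cold root, against 106 and 123 in cold shoot (log2 fold 0.63 ± 0.11 (SE), limma adjusted p = 1.4e-05). It carries asparagine. Of the 13 listed loci of this sequence (os_tR37), 2 lie on the plastid genome and 1 on the mitochondrial genome. Its fragments thus need not come from plastids, which was not tested. The same holds for other families counted as plastid. Phe-GAA (os_tR197), for example, has 1 plastid and 2 mitochondrial loci among 8 listed. In the controls plastid Asn-GTT had 204 and 203 RPM in control root, against 197 and 178 in control shoot, and its organ difference was 0.12 there. The plastid-like nuclear Asn-GTT family was likewise the one of its origin called higher (log2 fold 0.35), but the call was lost without cold root replicate 2 (0.29) or without cold shoot replicate 1 (0.26).

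Among single fragments, 107 of 144 that match only plastid tRNAs were lower in cold root and none was higher. Of 348 that match plastid and plastid-like tRNAs alike, 257 were lower and 5 higher. Their medians were -2.05 and -2.07, against -0.30 over all 2794, of which 25.2% were lower and 14.6% higher. In the tRNA signal, 17 of 23 plastid tRNAs were lower and none higher, at a median log2 fold of -1.49, or 19 lower at -2.19 after rescaling to the same total. Over all 244 tRNAs 12.3% were lower and 34.8% higher as deposited, and 56 of 245 were lower and 59 higher after rescaling.

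Among nuclear tRNAs, fragments of arginine tRNAs stood higher in cold root. Arg tRNAs gave 10.1% and 10.1% of all tRFs in cold root, against 3.65% and 3.80% in cold shoot. In the controls they gave 12.3% and 12.5% in control root, against 4.81% and 4.83% in control shoot. Among nuclear tRFs alone, which leaves out the plastid fragments that fill much of the shoot libraries, the share was 10.9% and 10.9% in cold root, against 5.46% and 5.62% in cold shoot. All 5 Arg families had higher tRF totals in cold root. Both rescalings shifted the family folds upward (median family -0.59 as deposited, -0.28 with the same total, 0.66 when centred). They could thus not turn the sign of a family that was higher as deposited. As shares of nuclear tRFs the log2 ratios were 1.46 for Arg-TCT, 1.11 for Arg-ACG, 1.09 for Arg-TCG, 0.66 for Arg-CCT and 0.11 for Arg-CCG. Of the 19 Arg tRNAs 15 were higher and 2 lower (median log2 fold 0.91, against -0.24 over all tRNAs). Over all tRF totals 27.2% were higher and 48.2% lower, and of the 186 nuclear ones 64 were higher and 66 lower. Arg-TCT had 2527 and 2430.3 RPM in cold root, against 818 and 811 in cold shoot (log2 fold 1.60 ± 0.04 (SE), limma adjusted p = 4.2e-20). Arg-ACG had 3958 and 4004 RPM in cold root, against 1619.9 and 1715 in cold shoot (log2 fold 1.26), and Arg-TCG 906 and 835 RPM in cold root, against 335 and 404 in cold shoot (log2 fold 1.24). Arg-CCT had 2715 and 2820.3 RPM in cold root, against 1568 and 1599.5 in cold shoot (log2 fold 0.81). Arg-CCG differed least, with 526 and 547 RPM in cold root, against 455 and 442 in cold shoot (log2 fold 0.26). These tRNAs decode different arginine codons, and no library of one organ reached into the range of the other for any of them. The tRF-5 of Arg-TCG printed above had 337 and 328 RPM in cold root, against 54.2 and 91.6 in cold shoot (log2 fold 2.22 ± 0.18 (SE), limma adjusted p = 1.2e-08). That of Arg-CCT had 1096 and 1153 RPM in cold root, against 553 and 552 in cold shoot (log2 fold 1.02 ± 0.06 (SE), limma adjusted p = 1.9e-10). Both are 19 bases long and reach from the 5' end of the tRNA into its D arm.

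**Figure D2:**
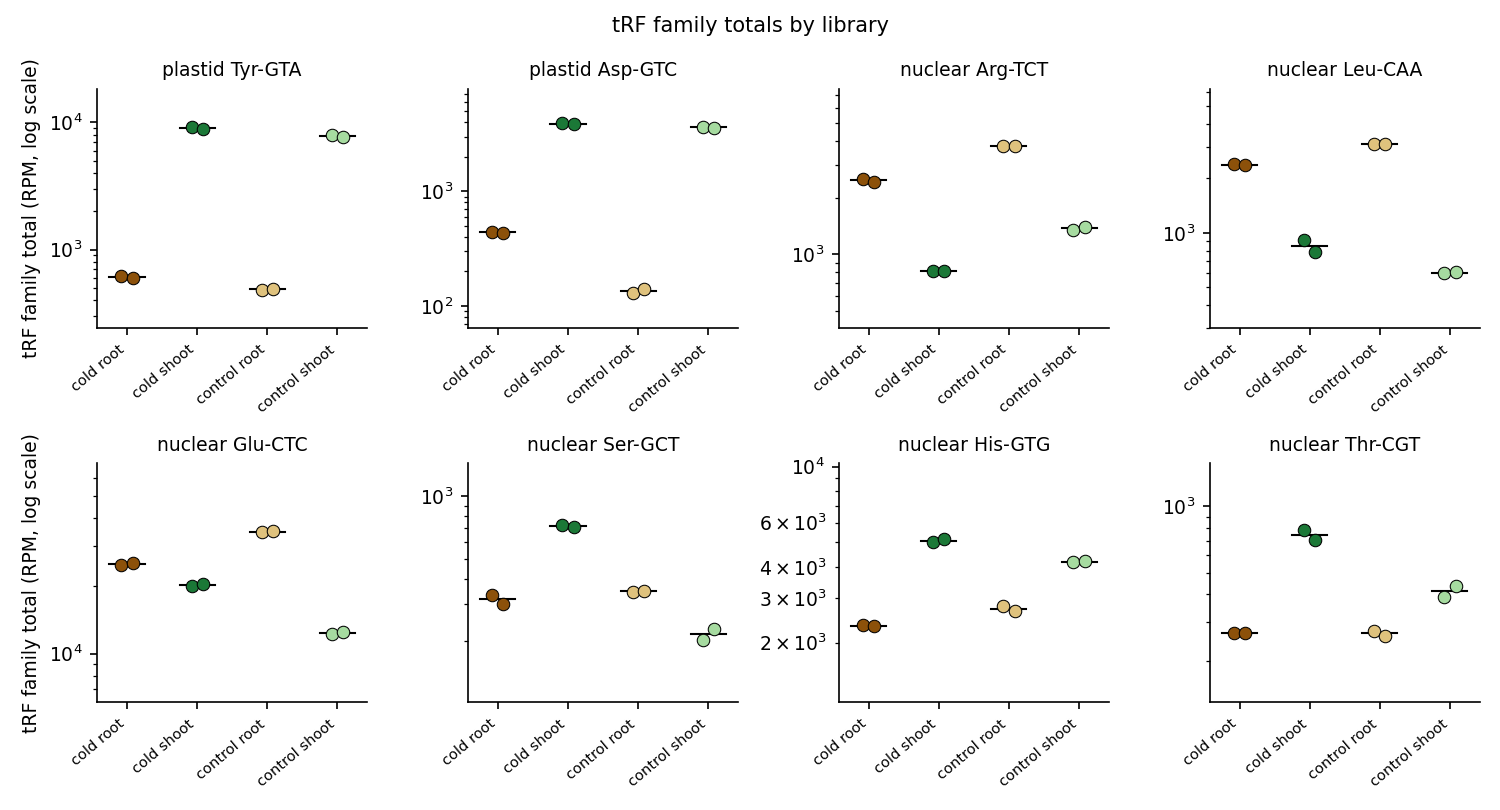
tRF totals of 8 tRNA families in RPM on a log axis, for the 2 libraries of cold root, cold shoot, control root and control shoot. Plastid Tyr-GTA and Asp-GTC lie lower in root; nuclear Arg-TCT and Leu-CAA lie higher in root, while nuclear Ser-GCT, which is lower in cold root than in cold shoot as deposited (log2 fold -1.18, but 0.08 when centred on the median family), has the opposite order in the controls as deposited.

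Outside arginine, Leu-CAA had the largest difference of a nuclear family that was higher, with 2394 and 2375 RPM in cold root, against 910.4 and 781 in cold shoot (log2 fold 1.5 ± 0.05 (SE), limma adjusted p = 3.6e-17). Its most abundant fragment, the tRF-3 printed above that lacks the last A, had 151 and 137 RPM in cold root, against 45.0 and 29 in cold shoot (log2 fold 1.96). Of the 12 nuclear Leu tRNAs 1 was called higher and 1 lower, or 5 and 0 after rescaling to the same total. The leucine share of nuclear tRFs was 2.81% and 2.81% in cold root, against 1.42% and 1.28% in cold shoot. Most of it came from the Leu-CAA tRNA os_tR150 (chr10:15434981-15435064). Ser-TGA, a serine tRNA, had 752 and 761 RPM in cold root, against 354 and 353 in cold shoot (log2 fold 1.10). Ile-AAT, an isoleucine tRNA, had 1752 and 1717 RPM in cold root, against 1099.8 and 1108 in cold shoot (log2 fold 0.65). Smaller rises were those of Gly-CCC (0.60), Lys-CTT (0.54), Trp-CCA (0.42) and Thr-TGT (0.31). Both rescalings shifted family folds upward, so they could not turn these signs. As shares of nuclear tRFs the log2 ratios were 0.45, 0.39, 0.27 and 0.16 in the same order. In all, 20 of 48 nuclear families were higher and 17 lower (median 0.06), and 30 higher and 10 lower after rescaling to the same total.

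Glutamate tRNAs gave more tRFs than any other amino acid group of nuclear tRNAs in both cold organs. They held 35.6% and 35.8% of tRF totals in cold root, against 24.2% and 24.5% in cold shoot. Among nuclear tRFs alone the share was 38.5% and 38.8% in cold root, against 36.2% and 36.2% in cold shoot, a far smaller gap. Glu-CTC, the family with the most reads, had 24718 and 25168 RPM in cold root, against 19924 and 20306 in cold shoot (log2 fold 0.31 ± 0.02 (SE), limma adjusted p = 1.0e-12). Glu-TTC had 12877 and 12654 RPM in cold root, against 11818 and 11764 in cold shoot (log2 fold 0.11), but as a share of nuclear tRFs it was 13.2% and 13.0% in cold root, against 13.5% and 13.3% in cold shoot, with root below shoot. The groups were apart in both families, by far less than in Arg-TCT, Arg-ACG, Arg-TCG and Arg-CCT. Of 11 Glu-CTC tRNAs, 6 were higher in cold root and 1 lower, against 27.2% higher and 48.2% lower over all tRF totals. After rescaling to the same total these were 9 and 0, against 106 and 108 of all 272. They did not move alike. The tRNA os_tR92 (chr1:35798452-35798524) had 2848 and 2720.2 RPM in cold root, against 808 and 816 in cold shoot (log2 fold 1.78 ± 0.04 (SE), limma adjusted p = 9.9e-19). By contrast, os_tR93 (chr1:35801512-35801584), the most abundant of them, had 4420.1 and 4501 RPM in cold root, against 4283 and 4316 in cold shoot (log2 fold 0.05, adjusted p = 0.107 by limma, and called at 0.37 after rescaling). Also abundant, os_tR99 (chr6:26710609-26710681), had 3115 and 3253 RPM in cold root, against 3819 and 3969.7 in cold shoot and a log2 fold of -0.29 as deposited, but 0.02 with the same total and 0.28 when centred. These tRNAs are near copies, each tRF read was counted under 1 tRNA only, and no source used here gives the rule for shared reads, so the family total is the firmer value.

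The make-up of the Glu-CTC fragments differed between the organs as well. Of the listed Glu-CTC fragments, 3'-halves made up 45.6% and 43.3% in cold root, against 11.4% and 9.72% in cold shoot. The tRF-5 made up 39.1% and 41.5% in cold root, against 70.4% and 73.8% in cold shoot. Fragments over 40 bases are not listed, so the 3'-halves printed above, of 40 bases, cannot appear with a complete CCA end. How far this limit changed the Glu-CTC values was not tested. The 3'-half with the listed base had 181 and 159.9 RPM in cold root, against 21.3 and 18.4 in cold shoot (log2 fold 3.04 ± 0.17 (SE), limma adjusted p = 1.2e-10). The one read with T had 298 and 318 RPM in cold root, against 37.3 and 39.6 in cold shoot (log2 fold 2.97), and the one read with G 412 and 399 RPM in cold root, against 71.2 and 41.7 in cold shoot (log2 fold 2.87). In the opposite direction, the tRF-5 of 30 bases had 995 and 965 RPM in cold root, against 1832 and 1785 in cold shoot (log2 fold -0.88 ± 0.05 (SE), limma adjusted p = 4.3e-11). For Glu-TTC, the 5'-half of 35 bases, the most abundant nuclear fragment of the cold libraries, had 2629.6 and 2618 RPM in cold root, against 1222 and 1179 in cold shoot (log2 fold 1.13 ± 0.04 (SE), limma adjusted p = 2.5e-14). The glycine share of nuclear tRFs was 15.7% and 15.5% in cold root, against 14.5% and 14.8% in cold shoot. Of all tRFs it was 14.5% and 14.4% in cold root, against 9.69% and 10.0% in cold shoot, where plastid fragments fill more of the sum. The tRF-5 of 18 bases from Gly-TCC had 1558 and 1611 RPM in cold root, against 1002 and 1099 in cold shoot (log2 fold 0.59).

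Fragments of several nuclear families stood lower in cold root. For most of those named here the sign turned when centred on the median family, but not after rescaling to the same total. Thr-CGT, a threonine tRNA, had 268 and 268 RPM in cold root, against 784 and 707 in cold shoot (log2 fold -1.47 ± 0.07 (SE), limma adjusted p = 1.3e-14). It was called lower after both rescalings as well (-1.16 and -0.22). Its 3'-half with a complete CCA end had 0.382 and 0.958 RPM in cold root, against 50.8 and 38.1 in cold shoot (log2 fold -4.77 ± 0.48 (SE), limma adjusted p = 2.4e-07), fewer than 10 reads in each cold root library. His-GTG, the histidine tRNA, had 2347 and 2322 RPM in cold root, against 5002 and 5159 in cold shoot. Its log2 fold was -1.12, -0.81 after rescaling to the same total, but 0.13 when centred on the median family. As a share of the nuclear tRFs it was 2.39 ± 0.0141% in cold root and 5.76 ± 0.0913% in cold shoot (SD, n = 2 each). In the controls it averaged 2.36% in control root and 6.27% in control shoot. The share among nuclear fragments leaves the plastid fragments, which fill much of the shoot libraries, out of the sum. Asp-GTC had 1365 and 1419 RPM in cold root, against 2871 and 2857 in cold shoot (log2 fold -1.04, and 0.21 when centred). Ser-GCT had 332 and 301 RPM in cold root, against 725 and 709.9 in cold shoot (log2 fold -1.18, and 0.08 when centred). The proline families fell in the deposited scaling, Pro-CGG by 0.90, Pro-AGG by 0.71 and Pro-TGG by 0.67 on the log2 scale, and stood at 0.36, 0.55 and 0.58 when centred. Of the 106 families, 22 are plastid and 22 plastid-like, which lowers the median family. As shares of nuclear tRFs, Asp-GTC, Ser-GCT and the proline families were all lower in cold root, without overlap between the organs. The log2 ratios of these shares were -1.19 for Asp-GTC, -1.33 for Ser-GCT, -1.04 for Pro-CGG, -0.85 for Pro-AGG and -0.82 for Pro-TGG. Of 13 single proline tRNAs, 12 were lower and none higher, 10 and 0 after rescaling to the same total, and 7 lower and 2 higher when centred. Over all 272 tRF totals, 48.2% were lower as deposited, 108 after rescaling and 87 when centred. The 5'-half of Gln-CTG, a glutamine tRNA, had 376 and 409 RPM in cold root, against 957 and 956 in cold shoot (log2 fold -1.29 ± 0.07 (SE), limma adjusted p = 5.2e-11).

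Mitochondrial tRNAs, unlike those of plastids, gave a larger share of the fragments in cold root. The share of tRF totals was 2.08% and 2.10% in cold root, against 1.03% and 1.07% in cold shoot (exact permutation p = 0.333, the smallest possible). Of 12 mitochondrial families 5 were higher and 1 lower (median log2 fold 0.18, against -0.59 over all families), 7 and 1 after rescaling to the same total, and 11 and 0 when centred. Tyr-GTA had 1102 and 1073 RPM in cold root, against 461 and 486 in cold shoot (log2 fold 1.2 ± 0.07 (SE), limma adjusted p = 9.9e-13). Its tRF-3 printed above had 387 and 361 RPM in cold root, against 111 and 128 in cold shoot (log2 fold 1.64). The plastid and the mitochondrial tyrosine tRNA thus gave tRF-3 of the same length that differed between the organs in opposite directions. Gln-TTG (log2 fold 1.45), Glu-TTC (1.0), Trp-CCA (0.55) and Met-CAT (0.40) were also higher, while Ser-GGA was lower as deposited (-0.75) and at 0.50 when centred.

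Most organ differences seen in the cold were also present in the controls, which share no library with them. In the controls limma called 94 of 106 families (88.7%), 40 higher in root (37.7%) and 54 lower (50.9%), and 224 of 272 tRF totals (82.4%), 116 higher (42.6%) and 108 lower (39.7%). By signal it called 181 of 244 tRNAs (74.2%), 144 higher (59%) and 37 lower (15.2%). Of individual tRFs it called 1382 of 2794 (49.5%), 613 higher (21.9%) and 769 lower (27.5%). Families higher in root in both numbered 27 (93.1% of 29 in the cold and 67.5% of 40 in the controls), and families lower in both 52 (88.1% of 59 in the cold and 96.3% of 54 in the controls). Of tRNAs by signal, 81 (95.3% of 85 in the cold and 56.2% of 144 in the controls) were higher in both and 26 (86.7% of 30 in the cold and 70.3% of 37 in the controls) lower in both. Of individual tRFs, 306 (75.2% of 407 in the cold and 49.9% of 613 in the controls) were higher in both and 500 (71.1% of 703 in the cold and 65.0% of 769 in the controls) lower in both. Opposite calls were few for families, 4 lower in the cold and higher in the controls, and after rescaling to the same total 2 of that kind and 3 of the other. Among tRF totals 18 were lower in the cold and higher in the controls, and 4 after rescaling.

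**Figure D3:**
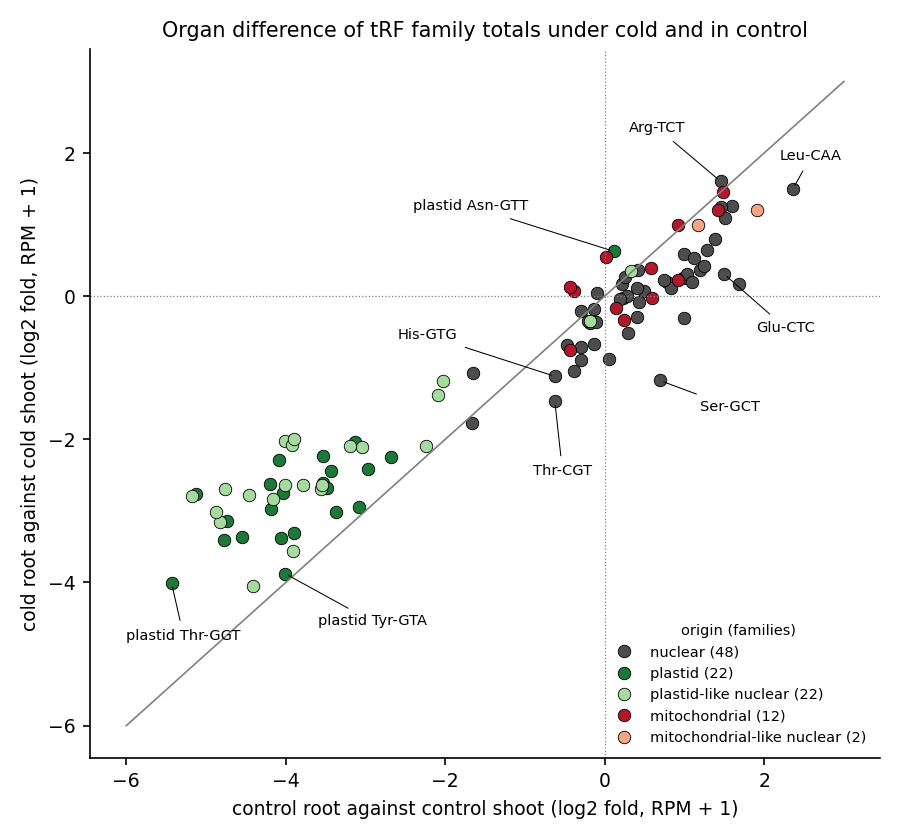
log2 fold of root over shoot for the tRF totals of 106 tRNA families in control seedlings (x axis) and in the cold (y axis), coloured by origin, with the line of equal values. Plastid and plastid-like families sit at the lower left, mostly above the line, and nuclear families sit around 0, mostly below it, with Ser-GCT positive in the controls and negative in the cold as deposited (0.08 in the cold when centred on the median family).

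The size of the organ difference was tested between cold and control (cold root minus cold shoot, less control root minus control shoot). It changed for 71 of 106 families (67%), 38 upward (35.8%) and 33 downward (31.1%), 52 upward and 22 downward after rescaling to the same total, and 27 upward and 50 downward when centred, so the majority direction depends on the scaling. Among plastid families 20 of 22 changed upward and none downward, so that the deficit of root was smaller in the cold. The median log2 fold was -2.76 in the cold and -3.96 in the controls, and 21 changed upward after rescaling (14 upward and 1 downward when centred). Plastid Asp-GTC, one of the abundant families, had log2 folds of -3.14 in the cold and -4.73 in the controls (change 1.60 ± 0.06, adjusted p = 6.8e-15 by limma). Its values in the controls were 128 and 142 RPM in control root, against 3659 and 3567 in control shoot. Plastid Tyr-GTA moved little, with -3.88 in the cold and -4.01 in the controls. Its change of 0.13 was called as deposited but stood at -0.23 when centred. The call was lost without cold root replicate 1 at 0.12, without cold shoot replicate 2 at 0.11 and without control shoot replicate 1 at 0.11. Among nuclear families 1 of 48 changed upward and 32 downward, 8 and 22 after rescaling to the same total, and none and 42 when centred.

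The nuclear Glu-CTC family had a narrower lead of root in the cold: its tRF total in the controls was 34624 and 34921 RPM in control root, against 12183 and 12477 in control shoot. The log2 fold was 0.31 in the cold and 1.5 in the controls (change -1.19 ± 0.03, adjusted p = 1.6e-19 by limma, -0.78 after rescaling to the same total). As a share of nuclear tRFs it was 25.5 ± 0.364% in cold root and 22.8 ± 0.169% in cold shoot (SD, n = 2 each). It was 30.0 ± 0.328% in control root and 18.4 ± 0.171% in control shoot (SD, n = 2 each). The cold value lay lower than the control in root and higher in shoot. Of 11 Glu-CTC tRNAs the organ difference of 10 tRF totals changed downward and of none upward, 8 and 0 after rescaling to the same total. Over all tRF totals it changed for 164 of 272 (60.3%), 66 upward (24.3%) and 98 downward (36%), but 91 upward and 54 downward after rescaling and 78 and 74 when centred. For os_tR92 it stood at 1.78 in the cold and 3.36 in the controls (change -1.58 ± 0.05, adjusted p = 2.4e-14). Ser-GCT, a serine tRNA, changed sign as deposited: root was lower in the cold (log2 fold -1.18; 0.08 when centred) and higher in the controls (0.69), a change of -1.87 ± 0.11, adjusted p = 4.2e-12 by limma. As a share of nuclear tRFs it was 0.340% and 0.309% in cold root, against 0.826% and 0.802% in cold shoot, but 0.296% and 0.302% in control root, against 0.301% and 0.339% in control shoot, where the organs overlapped. Its tRF-3 printed above had 31.9 and 25.9 RPM in cold root, against 269.7 and 256 in cold shoot. In the controls it had 35.3 and 24.8 RPM in control root, against 24 and 30.3 in control shoot. Cold shoot held more of this fragment than any of the other 3 groups, while cold root, control root and control shoot lay within 24 to 35.3 RPM. Thr-AGT (change -1.30), Val-TAC (-1.51) and Ser-AGA (-0.93) also changed downward. Arg-TCG was not called (-0.22, adjusted p = 0.0900 by limma), but was called without cold shoot replicate 1 at -0.36, without control shoot replicate 1 at -0.36, and when centred at -0.58. Arg-TCT, with 1.60 in the cold and 1.45 in the controls, changed by 0.15 as deposited but by -0.21 when centred. The call was lost without cold root replicate 1 (0.12) and without control shoot replicate 2 (0.12).

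In the tRNA signal, lysine, isoleucine and leucine tRNAs of the nucleus held larger shares in cold root. Lys tRNAs gave 8.33% and 8.51% of it in cold root, against 1.95% and 1.93% in cold shoot. Ile tRNAs gave 8.74% and 8.83% in cold root, against 2.71% and 2.92% in cold shoot, and Leu tRNAs 15.7% and 15.8% in cold root, against 7.19% and 7.87% in cold shoot. Of the nuclear signal alone, Lys tRNAs gave 9.59% and 9.88% in cold root, against 3.87% and 3.73% in cold shoot, and Ile tRNAs 10.1% and 10.2% in cold root, against 5.38% and 5.63% in cold shoot. Leu tRNAs gave 18.1% and 18.4% in cold root, against 14.3% and 15.2% in cold shoot of it. The libraries did not overlap in any of these shares. Lys-CTT os_tR163 (chr10:16764162-16764234, 1 of 16 listed loci) had 8489.8 and 9281 RPM in cold root, against 1229.6 and 1291 in cold shoot (log2 fold 2.82 ± 0.09 (SE), limma adjusted p = 6.2e-13). Ile-AAT os_tR141 (chr9:14619962-14620035) had 4498 and 4810.1 RPM in cold root, against 498 and 653 in cold shoot (log2 fold 3.03). Leu-AAG os_tR147 (chr2:5569897-5569977) had 507 and 544 RPM in cold root, against 39.3 and 40.1 in cold shoot (log2 fold 3.69). Of 8 nuclear Lys tRNAs 6 were higher and none lower, of 7 Ile tRNAs 5 and none, and of 12 Leu tRNAs 9 and none. After rescaling to the same total these were 5, 2 and 6 higher and again none lower. For Ile, 2 of 7 was a smaller fraction than the 57 of 175 over all nuclear tRNAs. Such rises were not limited to these amino acids. Of 18 nuclear Arg tRNAs 12 were higher and none lower, and of 15 Gly tRNAs 8 and none, with medians above those of Ile and Leu. After rescaling, 10 Arg tRNAs were higher and none lower, and 8 Gly tRNAs higher and 1 lower. In the controls 7 Lys, 5 Ile, 9 Leu, 15 Arg and 11 Gly tRNAs were higher in root and none lower. Gly-TCC os_tR124 (log2 fold 3.58), Arg-TCT os_tR36 (3.03), Leu-AAG os_tR148 (3.18) and Lys-TTT os_tR172 (3.82) completed the 6 largest rises. The last, os_tR172, had no reads in cold shoot replicate 1 and lost the call without that library (2.14) or without cold root replicate 1 (3.45). The most abundant tRNA, Leu-CAG os_tR153 (chr1:2391023-2391103), had 8408 and 9092 RPM in cold root, against 2253 and 2622 in cold shoot (log2 fold 1.85). Of all 175 nuclear tRNAs tested, 81 were higher and 1 lower (median 1.21, against 0.72 over all), and 57 and 18 after rescaling.

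The 1 nuclear tRNA lower in cold root as deposited was Pro-AGG os_tR205 (chr11:24115216-24115287), with 16.3 and 8.46 RPM in cold root, against 218 and 232 in cold shoot (log2 fold -4.14 ± 0.74 (SE), limma adjusted p = 1.8e-04). Proline tRNAs as a group had 6 of 12 lower after rescaling and none higher. Plastid Asp-GTC os_tR55 (chrC:16231-16304 on the plastid genome), the most abundant plastid tRNA, had 2449.5 and 2431 RPM in cold root, against 7065 and 7025 in cold shoot (log2 fold -1.53 ± 0.08 (SE), limma adjusted p = 2.3e-10). Plastid Glu-TTC os_tR102 had 3739.5 and 4160.4 RPM in cold root, against 4876 and 5449 in cold shoot (log2 fold -0.39, and -1.08 after rescaling). For os_tR102 the control values were 1004 and 1004 RPM in control root, against 3591 and 3623 in control shoot. Its organ difference changed by 1.46 ± 0.12, adjusted p = 1.0e-07 (limma). The other 5 of the 6 largest falls were plastid os_tR295 and os_tR260 and plastid-like os_tR183, os_tR298 and os_tR59, and each lost its call without at least 1 library. The call was lost for os_tR295 without cold root replicate 1 (-2.34), for os_tR260 without cold root replicate 1 (-1.98), cold shoot replicate 1 (-2.55) or cold shoot replicate 2 (-2.49). It was lost for os_tR59 without cold shoot replicate 1 (-2.51) or 2 (-2.34). It was lost for os_tR183 and os_tR298 without any 1 of the 4 cold libraries, at values of -3.91 to -2.51 for os_tR183 and -2.99 to -2.6 for os_tR298. Over all tRNAs the organ difference of the signal changed for 106 of 244 (43.4%), 17 upward (6.97%) and 89 downward (36.5%), but for 36 and 29 after rescaling to the same total.

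The fragments of cold root were more often 3'-halves, and those of cold shoot more often tRF-3. The 3'-halves made up 21.9% and 21% in cold root, against 9.71% and 9.41% in cold shoot. The tRF-3 made up 10.1% and 9.93% in cold root, against 23.5% and 22.8% in cold shoot (exact permutation p = 0.333 for each, the smallest possible). In the controls, 3'-halves made up 30.7% and 30.0% in control root, against 12% and 11.5% in control shoot. Classes are shares of the listed individual tRFs, which held 48.8% and 49.4% of the tRF totals in cold root and 54.5% and 54.7% in cold shoot. The tRF-5 class stood at 47.5% and 48.7% in cold root, against 43.5% and 45.0% in cold shoot. The 5'-halves stood at 20.5% and 20.3% in cold root, against 23.2% and 22.8% in cold shoot, a difference of -2.59 points that became 1.43 points among fragments without a mismatch. Among nuclear fragments alone, 3'-halves made up 23.7% and 22.7% in cold root, against 14.5% and 13.9% in cold shoot. The nuclear tRF-3 made up 6.57% and 6.45% in cold root, against 10.1% and 9.66% in cold shoot, a narrower gap. Plastid and plastid-like tRF-3 held 937 and 930.3 RPM in cold root, against 12036 and 11700.2 in cold shoot. The nuclear tRF-5 made up 48.9% and 50.2% in cold root, against 53.2% and 55.0% in cold shoot, the order opposite to that over all fragments. Of 844 individual 3'-halves 238 were higher and 114 lower, 329 and 86 after rescaling to the same total. Of 878 tRF-3, 46 were higher and 299 lower. Over all individual tRFs 14.6% were higher and 25.2% lower. Single nuclear families showed such differences too: in Trp-CCA, 3'-halves made up 70.1% and 68.1% in cold root, against 35% and 37% in cold shoot. In Thr-AGT tRF-3 made up 4.73% and 3.73% in cold root, against 29.7% and 31.6% in cold shoot. In Val-TAC, a valine tRNA, tRF-3 made up 7.12% and 5.91% in cold root, against 31.2% and 27.8% in cold shoot.

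**Figure D4:**
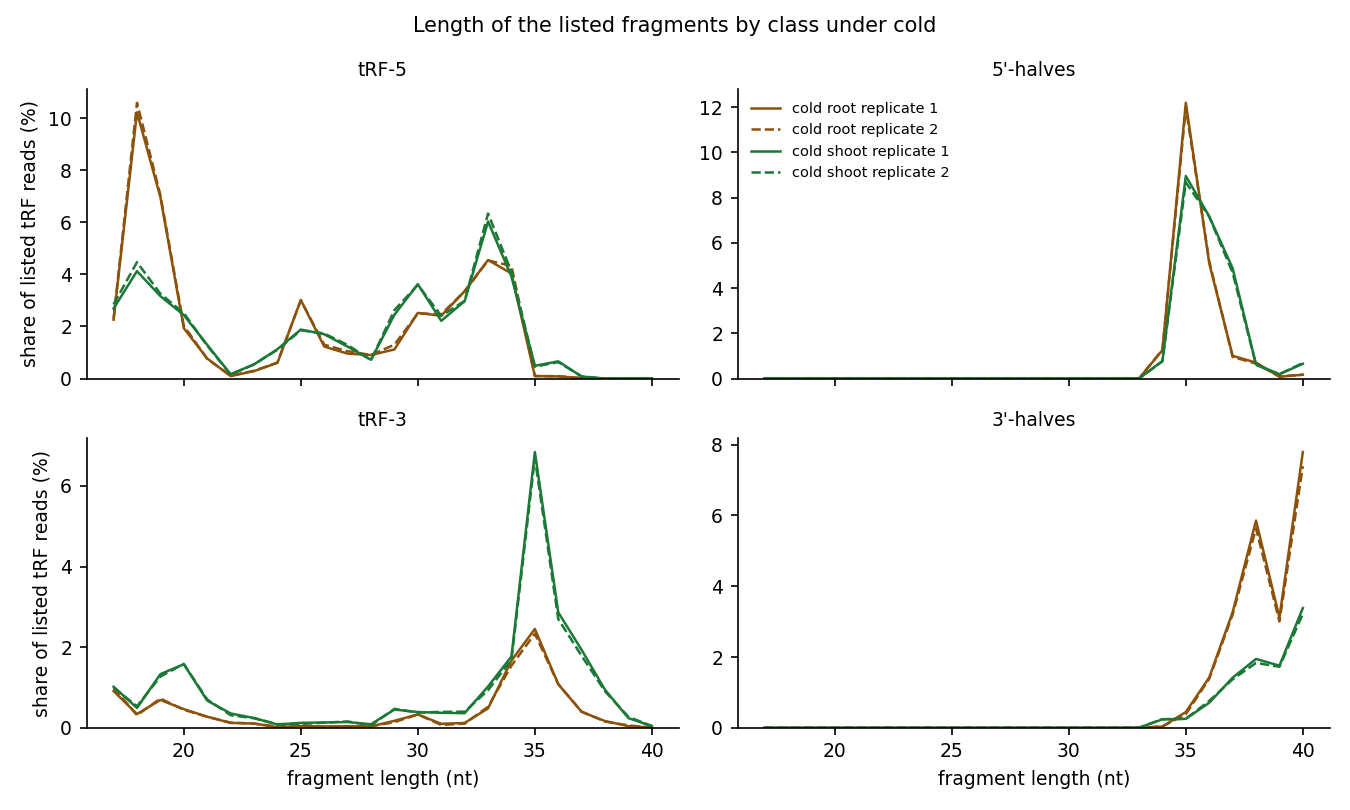
Share of the listed tRF reads, in percent, by fragment length in bases for tRF-5, 5'-halves, tRF-3 and 3'-halves in the 2 cold root and 2 cold shoot libraries. The tRF-5 of 18 bases and the 3'-halves of 38 and 40 bases stand higher in cold root, the 5'-halves of 37 bases and tRF-3 of 35 bases in cold shoot; no listed fragment is longer than 40 bases.

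Within the classes, single lengths differed between the organs. The tRF-5 of 18 bases made up 10.2% and 10.6% in cold root, against 4.13% and 4.47% in cold shoot. Those of 19 bases made up 6.97% and 7.05% in cold root, against 3.17% and 3.26% in cold shoot. The 3'-halves of 40 bases, the longest listed, made up 7.79% and 7.39% in cold root, against 3.38% and 3.22% in cold shoot. Those of 38 bases made up 5.85% and 5.63% in cold root, against 1.95% and 1.83% in cold shoot. In the other direction, 5'-halves of 37 bases made up 1.01% and 0.953% in cold root, against 4.88% and 4.68% in cold shoot. The tRF-3 of 35 bases made up 2.45% and 2.33% in cold root, against 6.84% and 6.69% in cold shoot. The plastid Asp-GTC 5'-half and the plastid Tyr-GTA tRF-3 printed above have those lengths. Fragments over 40 bases are not listed, so a 3'-half that would reach beyond this length with its complete CCA end is missing. With fragments of 40 bases left out, the difference in 3'-halves was 8.55 points rather than 11.9.

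The 3' ends of the fragments differed between the organs. Of the nuclear 3'-halves, the share of reads that lacked the last A of CCA, as in the Glu-CTC sequences printed above, was 72.1% and 71.9% in cold root, against 45.1% and 44.3% in cold shoot. In the controls the share was 76.4% and 76.8% in control root, against 42.5% and 43.3% in control shoot, so the order of the organs was the same. The share among nuclear tRF-3 was 30.8% and 29.7% in cold root, against 9.71% and 9.64% in cold shoot. Among 3'-halves of plastid and plastid-like tRNAs it was 46.8% and 41.7% in cold root, against 20.7% and 19.1% in cold shoot. Without the last A a tRNA cannot be charged, and the CCA-adding enzyme can restore it. Of 10 nuclear families with at least 100 RPM of 3'-halves in each cold library, 10 (100%) had a share above that of cold shoot in both cold root libraries, by 7.52 to 43.5 points (median 19.7). In the controls 10 of 10 had the higher share in root likewise. In Glu-CTC the share was 92.3% and 91.7% in cold root, against 69.2% and 65.9% in cold shoot. In Glu-TTC it was 69.8% and 69.1% in cold root, against 24.6% and 27.3% in cold shoot. Of 5 families with as many tRF-3, 5 (100%) had the higher share in cold root, by 1.04 to 23.0 points (median 9.74). The smallest difference was in Val-AAC, where 1 of 95 fragments lacked the A, at 1.02% and 1.06% in cold root, against 0% in cold shoot. Among 3'-halves under 40 bases, which the limit on length touches less, the shares averaged 66.7% in cold root and 48.5% in cold shoot.

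**Figure D5:**
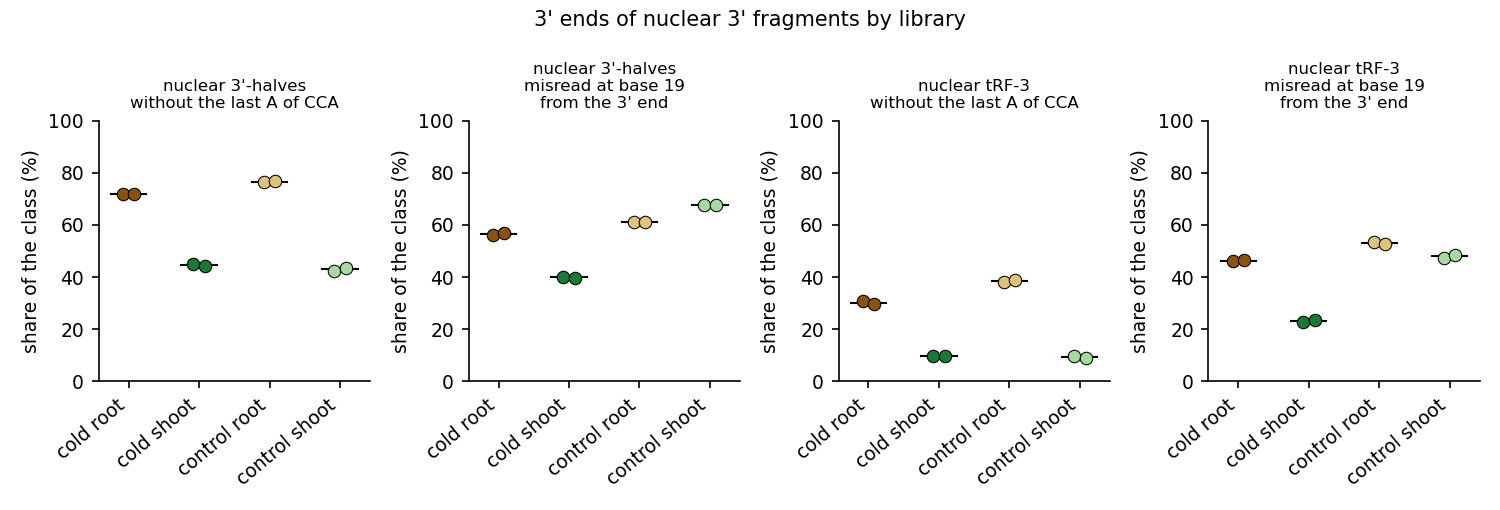
Share of the reads of nuclear 3'-halves and nuclear tRF-3, in percent, that lack the last A of CCA and that are misread at base 19 from the 3' end, for cold root, cold shoot, control root and control shoot. Dots are libraries and lines are means; cold shoot has the lowest misread shares of the 4 groups, while the share lacking the A is higher in both root groups than in both shoot groups.

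A second feature of the 3' fragments was a base read differently from the tRNA sequence, 19 bases from the 3' end of the whole tRNA, which is position 58 in the standard numbering. An adenosine stands there in many tRNAs, it is often methylated, and reverse transcriptase misreads the methylated base. Methylation itself was not measured. Whether the pretreatment of the RNA with the rtStar kit affected the misreading at this base was not tested. The share of reads of nuclear 3'-halves that were misread there was 56.2% and 57.1% in cold root, against 40.2% and 39.7% in cold shoot. In the controls it was 61.3% and 61.2% in control root, against 67.6% and 67.6% in control shoot. In the 3'-halves the order of the organs in the cold was thus opposite to that in the controls. Cold shoot was lowest of the 4 groups, and whether the difference itself changed was not tested. Among nuclear tRF-3 the share was 46.2% and 46.4% in cold root, against 22.7% and 23.4% in cold shoot, although the short ones among them do not reach this base. In the controls it was 53.4% and 52.6% in control root, against 47.4% and 48.6% in control shoot. For tRF-3 summed over all nuclear families the order of the organs was thus the same as in the cold, but single families did not show it. Of the 10 families, 8 (80%) had a higher share in both cold root libraries than in both cold shoot libraries, 1 had a lower one and 1 overlapped. In the controls root was below shoot in 9 and above in none. In Glu-TTC the share was 64.7% and 67.1% in cold root, against 25.1% and 33.4% in cold shoot, with a mean of 67.7% in control root and 75.8% in control shoot. In Gly-TCC it was 74.1% and 73.2% in cold root, against 50.6% and 55.1% in cold shoot. Gly-GCC, with 1.94% and 1.81% in cold root, against 2.47% and 2.29% in cold shoot, was the family that was lower. Of the 5 families with enough tRF-3, 4 (80%) had the higher share in cold root. Every one of these fragments had an A in the listed sequence. Among the misread reads of nuclear fragments, the share read as T was 53.3% and 54.0% in cold root, against 56.8% and 57.5% in cold shoot, and nearly all others were read as G. No 3'-half of a plastid or plastid-like tRNA was listed as misread at this base.

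Of 624 individual 3' fragments misread at this base, 171 were higher in cold root and 11 lower (median log2 fold 0.58, against -0.30 over all individual tRFs), 234 and 5 after rescaling to the same total. Over all individual tRFs 14.6% were higher and 25.2% lower, and 600 and 551 of 2794 after rescaling. All 844 3'-halves, misread ones included, had 238 higher and 114 lower at a median of 0.56. The 409 3'-halves without a mismatch had 81 higher and 102 lower at a median of -0.07. In the controls 198 of the misread fragments were higher and 90 lower, against 21.9% and 27.5% over all individual tRFs. The most abundant misread 3'-half of Trp-CCA, a tryptophan tRNA, had 94.3 and 98.5 RPM in cold root, against 22.3 and 23.9 in cold shoot (log2 fold 2.02 ± 0.25 (SE), limma adjusted p = 4.3e-06). That of Thr-TGT had 137 and 121 RPM in cold root, against 35.8 and 31.4 in cold shoot (log2 fold 1.91 ± 0.18 (SE), limma adjusted p = 1.3e-07). In both, the groups of libraries were apart in RPM. The 3'-halves of Trp-CCA together were also higher, at 264 and 262 RPM in cold root, against 104 and 112 in cold shoot. Their misread share overlapped between the organs, at 67.7% and 68.5% in cold root, against 68.4% and 59.4% in cold shoot. For Thr-TGT the misread share was 55.6% and 53.0% in cold root, against 42.6% and 40.4% in cold shoot. Among all individual tRFs the organ difference changed between cold and control for 267 (9.56%), 120 upward (4.29%) and 147 downward (5.26%), or 161 in all without cold root replicate 1 and 161 without cold root replicate 2. After rescaling to the same total 193 changed upward and 96 downward, and when centred 125 and 139. Of the misread fragments, 29 changed upward and 6 downward.

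Finally, the tRF total of each tRNA was set against its own tRNA signal. The tables were scaled separately, so each library was centred on its median and only differences from the median tRNA can be read. Of 181 tRNAs with at least 10 RPM in both tables, 55 differed between cold root and cold shoot (30.4%), 20 with more tRFs per signal in root (11%) and 35 with fewer (19.3%). In the controls 71 differed (39.2%), 37 with more (20.4%) and 34 with fewer (18.8%). Fewer were called with any 1 library left out: 33 without cold root replicate 1, 21 without cold root replicate 2, 14 without cold shoot replicate 1 and 27 without cold shoot replicate 2. Glu-CTC os_tR92 (log2 difference 1.74, limma adjusted p = 0.00217) had the largest rise, followed by Pro-CGG os_tR211 (1.44), plastid Asn-GTT os_tR37 (1.33) and Leu-CAA os_tR150 (1.30). Of these, os_tR211 was not called without cold root replicate 2 (1.2) or cold shoot replicate 1 (1.18), and os_tR211, os_tR37 and os_tR150 were not called without centring (0.42, 0.30 and 0.28). The largest falls were those of Lys-TTT os_tR172 (-3.65), plastid-like His-GTG os_tR128 (-2.41), Leu-AAG os_tR147 (-2.31) and plastid-like His-GTG os_tR132 (-2.26). Without cold shoot replicate 1 the calls of os_tR172 (-1.95), os_tR128 (-1.80) and os_tR132 (-2.0) were lost. Those of os_tR172 (-3.34 and -3.96) and os_tR132 (-2.12 and -2.41) were also lost without cold root replicate 1 or 2. Leu-AAG os_tR147 and Leu-CAA os_tR150 both carry leucine and moved in opposite directions, while among Lys tRNAs 4 of 7 fell and none rose. Summed per family instead, 42 of 86 ratios were called, 7 with more tRFs per signal in root and 35 with fewer. The rises of os_tR92 and os_tR211 did not hold there (Glu-CTC -0.17, Pro-CGG -0.20, neither called). Plastid Asn-GTT (1.13), Leu-CAA (1.10), Lys-TTT (-1.78) and Leu-AAG (-0.99) kept their direction and were called. Plastid-like His-GTG (0.23) was not called.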

How the data were processed

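Rice small RNA was pretreated with the rtStar tRF&tiRNA kit and sequenced, and adapters were trimmed with cutadapt, per the submitters' processing notes; no source used here gives the aligner, its settings or the rice build. The authors deposited 3 tables of log2 values, per the file headers log2 of 1 plus a scaled read number (RPM), and the values fit whole reads (100% of them) with 0.5 added in the tables per tRNA and 1 added for individual tRFs; RPM and reads were recovered on that basis, and intervals that rest on reads cover counting error only. Listed tRFs are 17 to 40 bases long. log2(RPM + 1) was fitted with limma 3.58.1 (R 4.3.3, mean-variance trend, all 14 rice libraries as 7 groups), keeping those that averaged 1 RPM or more, and p-values were Benjamini-Hochberg adjusted over each table; the steps were tested on simulated data. Shares were compared by two-sided exact permutation tests over libraries. Locus starts in the files count from 0 and were raised by 1. Named features are the 6 largest called differences each way (mean of at least 10 RPM, no overlap), the 5 most abundant, the 4 largest changes between cold and control each way, and the most abundant member of each list; families and single fragments beyond these were picked after their values were seen. All members and lists were chosen with earlier results of these data known.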

Additional observations from a re-analysis of the deposited data

Results flagged for a closer look

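The following differed between cold and control in the size of the organ difference, tested as cold root minus cold shoot less control root minus control shoot by limma. The change was called for 106 of 244 tRNAs by signal, 164 of 272 tRF totals, 267 of 2794 individual tRFs (9.56%; 161 without cold root replicate 1 and 161 without cold root replicate 2) and 71 of 106 families. In the tRNA signal the upward changes were those of the plastid-like os_tR296 (5.02 on the log2 scale), os_tR220 (4.31) and os_tR52 (3.22) and of plastid Val-GAC os_tR295 (3.21). Calls were lost for os_tR220 without cold root replicate 1 (3.51), cold shoot replicate 1 (4.15), control root replicate 2 (3.01) or control shoot replicate 1 (4.22). Those of os_tR52 were lost without any of 7 libraries (2.15 to 3.39) and held without control root replicate 2. Those of os_tR295 were lost without any of 6 libraries (1.46 to 3.34) and held without cold root replicate 1 or control root replicate 2. The downward changes were those of nuclear Ser-AGA os_tR229 (-4.68), Asp-GTC os_tR57 (-3.64), Thr-CGT os_tR256 (-3.51) and Pro-CGG os_tR211 (-3.39); with libraries rescaled to the same total os_tR256 (-2.36) and os_tR211 (-2.24) were not called.

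Among tRF totals the organ difference changed upward for the plastid-like Val-GAC os_tR298 (2.56), Trp-CCA os_tR269 (2.45) and Gly-GCC os_tR116 (2.39) and for plastid Val-GAC os_tR295 (2.37). It changed downward for nuclear Ala-CGC os_tR9 (-3.37), Ser-AGA os_tR228 (-2.70), Trp-CCA os_tR272 (-2.09) and Ser-GCT os_tR240 (-2.05).

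Among individual tRFs 4 plastid fragments changed upward and 4 nuclear ones downward. They are printed as above, with capitals for anticodon bases, a misread base or a complete CCA end.
plastid Asp-GTC tRF-5 with a misread last base: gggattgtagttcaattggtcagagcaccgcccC
plastid Asp-GTC tRF-5 of 21 bases: gggattgtagttcaattggtc
plastid Glu-TTC 3'-half: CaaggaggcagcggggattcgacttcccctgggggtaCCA
plastid Val-GAC tRF-5: agggatataactcagcgg
nuclear Thr-CGT 3'-half of 40 bases: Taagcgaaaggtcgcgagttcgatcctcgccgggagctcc
nuclear Thr-CGT 3'-half of 36 bases: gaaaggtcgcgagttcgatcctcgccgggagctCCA
nuclear Ser-GCT tRF-3: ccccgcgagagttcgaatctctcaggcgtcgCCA
nuclear Glu-TTC 3'-half: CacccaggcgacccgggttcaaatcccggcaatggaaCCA

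The changes were 3.82 for the first of the Asp-GTC tRF-5, 3.32 for the second, 3.23 for the Glu-TTC 3'-half of the plastid and 2.87 for the Val-GAC tRF-5. They were -4.08 for the longer Thr-CGT 3'-half, -3.11 for the shorter, -3.28 for the Ser-GCT tRF-3 and -3.07 for the nuclear Glu-TTC 3'-half. For the nuclear Glu-TTC 3'-half the call was lost without cold root replicate 1 (-3.07), cold root replicate 2 (-3.08), cold shoot replicate 1 (-2.95), control root replicate 2 (-2.77) or control shoot replicate 1 (-1.89). Both Thr-CGT 3'-halves changed downward, although only the shorter has a complete CCA end: the longer had 11.6 and 12.1 RPM in cold root, against 25.7 and 21.5 in cold shoot, and 31.2 and 25.2 RPM in control root, against 2.27 and 2.29 in control shoot.

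The share of nuclear 3'-halves misread at base 19 from the 3' end was 16.6 percentage points higher in cold root than in cold shoot. In the controls the order was opposite in every library, with means of 61.2% in control root and 67.6% in control shoot. Among nuclear tRF-3 summed over all families the misread share was higher in root both in the cold and in the controls. Of the 5 single families with enough tRF-3, root was above shoot without overlap in 4 in the cold, but in 0 in the controls. For either class, the difference between cold and control was not tested.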

How the results depend on the processing

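The numbers of features called in either direction stayed within 1.5 times their values under the alternatives run, except as follows; the split between directions moved with the scaling. Higher and lower calls for the cold numbered 59 and 56 with the same total and 58 and 50 when centred, against 85 and 30, in the tRNA signal; 106 and 108 with the same total and 132 and 87 when centred, against 74 and 131, in tRF totals; 600 and 551 with the same total and 622 and 464 when centred, against 407 and 703, in individual tRFs; and 41 and 52 with the same total and 59 and 39 when centred, against 29 and 59, in families. The organ difference of the tRNA signal changed for 65 tRNAs with the same total and 67 when centred, against 106. Individual tRFs called numbered 554 at a mean of at least 10 RPM, where fewer were tested, and 709 to 912 with 1 library left out, against 1110, and their organ difference changed for 161 to 245, against 267. tRFs per tRNA signal differed for 28 tRNAs at a mean of at least 1 RPM, 101 without centring and 14 to 33 with 1 library left out, against 55. The plastid share of tRF totals differed by -26.4 points with organelle-like copies counted in, against -18.2. Signs turned for the tRNA signal of os_tR130 (-0.34 with the same total, -0.28 when centred), the tRF total of os_tR99 (0.0217 and 0.28) and nuclear Thr-AGT (0.0119 and 0.95). When centred only, they turned for mitochondrial Ser-GGA (0.50), nuclear Asp-GTC (0.21), nuclear His-GTG (0.13), nuclear Pro-AGG (0.55), nuclear Pro-CGG (0.36), nuclear Pro-TGG (0.58), nuclear Ser-AGA (0.38) and nuclear Ser-GCT (0.0753), and for the changes of nuclear Arg-TCT (-0.21) and plastid Tyr-GTA (-0.23). The 5'-halves share turned to 1.43 points without mismatched fragments, and among nuclear tRNAs only, a comparison added after the data were seen, the tRF-5 share of listed tRFs turned to -4.58 points and the Glu share of the tRNA signal to -1.16; the cause was not tested for any of these. With 1 library left out, 37 of 548 values of named features for cold root against cold shoot lost their call. Replicate numbers were not treated as pairs, since only 2 pairs exist and deviations of cold root and cold shoot correlated at 0.22, -0.06 and 0.07 in the 3 tables, although 9 fragments appeared in all replicate 2 libraries alone; a replicate block called 116, 208, 1140 and 91 features for the cold, 104, 166, 288 and 71 for the change, and 48 ratios. With 2 libraries a group, no share can pass an exact test, and replicate 2 libraries held 1.49 to 1.64 times the reads of replicate 1, so low features rest on few reads in replicate 1.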

Other observations

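Other tRNAs of the nucleus had more signal in cold root as well. Thr-TGT os_tR261, the most abundant threonine tRNA, had 5643 and 5969 RPM in cold root, against 1433 and 1826 in cold shoot (log2 fold 1.84 ± 0.11 (SE), limma adjusted p = 3.4e-10), and Arg-ACG os_tR16 1579 and 1898 RPM in cold root, against 512 and 430.1 in cold shoot (log2 fold 1.88). The most abundant glycine tRNA (Gly-GCC os_tR122, 2.25), isoleucine tRNA (Ile-AAT os_tR138, 1.98), tryptophan tRNA (Trp-CCA os_tR268, 1.78), methionine tRNA (Met-CAT os_tR176, 1.35) and glutamate tRNA (Glu-CTC os_tR93, 1.23) were also called higher. The tRNA signal of the most abundant alanine, cysteine and mitochondrial tRNAs was not called (Ala-TGC os_tR11 0.47, Cys-GCA os_tR66 -0.00, mitochondrial Met-CAT os_tR186 0.34). Nuclear His-GTG os_tR130 had a tRNA signal of 939 and 953 RPM in cold root, against 715 and 764 in cold shoot, a log2 fold of 0.36 as deposited that turned to -0.34 with the same total, beside a tRF total of 1708 and 1715 RPM in cold root, against 4293 and 4424 in cold shoot. In the table of individual tRFs, 9 sequences were listed at 0 in all 7 rice replicate 1 libraries and above 0 in all 7 replicate 2 libraries, 4 of them with a replicate 2 mean of at least 10 RPM, and 0 the other way round.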
